A study of Mus musculus with 24 samples.

Results

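The Forkhead factor genes, whose proteins share the forkhead DNA-binding domain, were followed in 8 deposited lists of histone-mark regions from the supporting cells of the mouse fetal gonad. Members were the protein-coding genes on chromosomes 1 to 19 whose symbol is Fox, a letter from a to s, a number and an optional final letter. This gave 40 genes of the 21418 protein-coding genes on those chromosomes in the GENCODE M1 annotation. *Foxl1* is annotated there as a pseudogene and *Foxo4*, *Foxp3* and *Foxr2* lie on the X chromosome, so they were not among the 40. The measurement was ChIP-seq for trimethylation of histone H3 at lysine 4 (H3K4me3) and at lysine 27 (H3K27me3), with ChIP for total H3 as the background. All mice were C57BL/6 x CD1. Gonadal progenitor cells were sorted from XY and from XX embryos at E10.5 (embryonic day) by an SF1-eGFP reporter, Sertoli cells from XY embryos at E13.5 by Sox9-CFP, and pregranulosa cells from XX embryos at E13.5 by TESM-CFP, a reporter built on a mutated testis enhancer of *Sox9*. The E10.5 and E13.5 cells therefore differ in reporter as well as in stage, and those differences cannot be told apart. The 24 libraries hold 2 replicates of each ChIP, each from cells pooled over several embryos. There is 1 list per mark and population. The series notes say that each was made from both replicates, and the headers of the 4 progenitor lists name read sets tagged cat. The headers of the 2 Sertoli lists carry no such tag, the 2 pregranulosa lists have none, and the study's methods describe peak calling on each replicate. With 1 list each, no spread between replicates can be given and no difference between populations was tested.

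Forkhead factors bind DNA mostly as monomers and include pioneer factors that open closed chromatin (the Foxa proteins), regulators of mesoderm and vessel formation (Foxc and Foxf), targets of insulin signalling that leave the nucleus when phosphorylated (Foxo), and the cell cycle activator *Foxm1*. *Foxl2* is the member best known in the gonad, where it specifies and maintains granulosa cells. H3K4me3 is placed by Trithorax group enzymes around active or poised promoters and H3K27me3 by Polycomb repressive complex 2 around silent ones. A promoter listed with both is called bivalent.

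The promoter window was the transcription start site (TSS) plus and minus 2 kb, and a mark was called present where a listed region overlapped that window by at least 1 bp. The lists carry no height for a region, so presence, extent and position are the only measures. The sequences just upstream of 4 starts are shown, 3 from CpG-rich starts that carried marks and 1 from a CpG-poor start that carried none. CpG content did not separate marked from unmarked members throughout, since *Foxr1*, with 15 CpGs in the same stretch, also had neither mark. Each is the 250 bases before the TSS on the gene's strand, read from the NCBIM37 (mm9) genome, with CpG dinucleotides in capitals. *Foxl2* (chr9:98855776-98856025, plus strand) and *Foxc1* (chr13:31898265-31898514, plus strand) held 22 and 29 CpGs and had both marks in every population. *Foxo1* (chr3:52072009-52072258, plus strand) held 20 and is shown because the edge of its H3K27me3 region fell inside this stretch in Sertoli cells. *Foxi1* (chr11:34108090-34108339, minus strand) held 4 and had neither mark in any population.
Foxl2: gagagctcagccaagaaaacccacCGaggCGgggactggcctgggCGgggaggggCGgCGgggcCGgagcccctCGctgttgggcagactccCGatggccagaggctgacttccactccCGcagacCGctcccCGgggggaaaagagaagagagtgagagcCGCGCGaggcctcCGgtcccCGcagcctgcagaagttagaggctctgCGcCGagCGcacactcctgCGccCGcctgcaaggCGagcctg
Foxc1: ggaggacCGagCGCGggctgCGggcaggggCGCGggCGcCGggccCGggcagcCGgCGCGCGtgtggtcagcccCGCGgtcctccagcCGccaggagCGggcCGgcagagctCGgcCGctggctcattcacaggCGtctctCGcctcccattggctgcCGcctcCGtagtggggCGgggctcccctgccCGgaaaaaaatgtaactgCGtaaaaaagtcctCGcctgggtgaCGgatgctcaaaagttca
Foxo1: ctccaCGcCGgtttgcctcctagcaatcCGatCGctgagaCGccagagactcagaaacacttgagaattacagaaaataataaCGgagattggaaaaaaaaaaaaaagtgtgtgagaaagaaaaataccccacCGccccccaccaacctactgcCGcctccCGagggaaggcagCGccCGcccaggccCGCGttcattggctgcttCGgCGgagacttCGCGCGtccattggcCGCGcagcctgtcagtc
Foxi1: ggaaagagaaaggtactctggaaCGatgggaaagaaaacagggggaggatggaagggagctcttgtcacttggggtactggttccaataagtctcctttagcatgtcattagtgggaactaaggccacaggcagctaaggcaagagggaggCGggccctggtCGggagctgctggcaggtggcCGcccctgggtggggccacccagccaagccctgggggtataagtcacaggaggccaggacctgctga

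The lists matched the labelled cell types at some of their markers and not at others. Of 5 progenitor markers, 5 were bivalent in each E10.5 population. In Sertoli cells 3 of them had H3K4me3 only and 2 were bivalent, and in pregranulosa cells all 5 had H3K4me3 only. All 8 Sertoli markers had H3K4me3 only in Sertoli cells, whereas 7 were bivalent and 1 had neither mark in pregranulosa cells. Of 8 pregranulosa markers, 7 were bivalent and 1 (*Runx1*) had H3K27me3 only in Sertoli cells. In pregranulosa cells 3 of those 8 had H3K4me3 only (*Wnt4*, *Rspo1* and *Bmp2*), 4 were bivalent (*Fst*, *Irx3*, *Lef1* and *Msx1*), and *Runx1* again had H3K27me3 only. Markers of other cell types gave a mixed picture. Of 5 endothelial markers, *Pecam1*, *Tie1* and *Tek* had neither mark in any list, *Kdr* was bivalent in all 4, and *Cdh5* had H3K4me3 only in pregranulosa cells and neither mark elsewhere. Of the 3 blood markers in the annotation, the leukocyte gene *Ptprc* had neither mark in any list, *Tal1* was bivalent in all 4, and the erythroid gene *Gata1* had H3K4me3 only in pregranulosa cells and neither mark elsewhere. Of 5 germ cell markers, *Ddx4* had neither mark in any list and *Dazl* had H3K4me3 only in all 4. *Dppa3* had H3K27me3 only in XY progenitors, both marks in XX progenitors and Sertoli cells, and H3K4me3 only in pregranulosa cells. *Pou5f1* and *Nanog* had H3K27me3 only, except for both marks at *Pou5f1* in Sertoli cells and at *Nanog* in pregranulosa cells. Of the interstitial and Leydig markers, *Star* had H3K4me3 only and *Insl3* and *Pdgfra* both marks in all 4. *Cyp17a1* had H3K4me3 only in pregranulosa cells and *Cyp11a1* in XX progenitors, with neither mark elsewhere. The mesonephric markers *Pax2*, *Pax8* and *Lhx1* were bivalent in every list. The part that other cells in a sort played in the calls below was not tested.

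Most Forkhead promoters were bivalent, in every population. Both marks were listed at 26 of 40 promoters in XY progenitors, XX progenitors, Sertoli cells and pregranulosa cells alike (65.0% each, exact binomial 95% interval 48.3 to 79.4%). Over all 21418 genes the share was 20.9%, 21.4%, 19.2% and 19.6% in that order. The interval covers the counting of 40 genes and not the error of the libraries. The 26 were not the same genes each time, and 24 were bivalent in all 4 populations (60.0%, 43.3 to 75.1%) where 14.0% of all genes were. With presence asked at the TSS itself, added after seeing the data, the 24 became 17. Those 24 include *Foxa1*, *Foxa2* and *Foxa3*, pioneer factors of endoderm, *Foxb1* and *Foxb2*, *Foxc1* and *Foxc2* of mesoderm and vessels, *Foxd1* to *Foxd4*, *Foxe1* of thyroid, *Foxe3* of lens, *Foxf1a* and *Foxf2* of visceral mesenchyme, *Foxj1* of motile cilia, *Foxl2*, *Foxo1* and *Foxp2*, and also *Foxh1*, *Foxi3*, *Foxn4* and *Foxq1*.

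H3K27me3 was at 27, 26, 28 and 28 of the 40 promoters in XY progenitors, XX progenitors, Sertoli cells and pregranulosa cells, against 23.6%, 22.8%, 24.2% and 22.1% of all genes. H3K4me3 was at 32, 35, 34 and 33, and here the background was 64.8%, 66.7%, 65.5% and 67.0%. The family thus stood further from the background in H3K27me3 than in H3K4me3. H3K27me3 was listed at 25 of the 40 in all 4 populations (the 24 bivalent genes and *Foxi2*), where it was at 16.3% of all genes. H3K27me3 without H3K4me3 was rare, at 1, 0, 2 and 2 of the 40 against 2.76%, 1.48%, 4.99% and 2.49% of all genes. Neither mark was listed at 7, 5, 4 and 5, against 32.4%, 31.8%, 29.5% and 30.5%. By comparison, 7 of 18 Sox genes and 7 of 12 Tbx genes were bivalent in all 4 populations. Within XY progenitors, XX progenitors, Sertoli cells and pregranulosa cells, 8, 9, 8 and 9 of the 12 Tbx genes were bivalent. For Sox genes the counts were 11, 12, 7 and 11 of 18 (61.1%, 66.7%, 38.9% and 61.1%). The Tbx share was thus above the Forkhead share of 65.0% in each population. The Sox share was above it in XX progenitors only. H3K27me3 was listed in all 4 populations at 9 of the 12 Tbx genes and 7 of the 18 Sox genes. The difference between families was not tested.

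**Figure D1:**
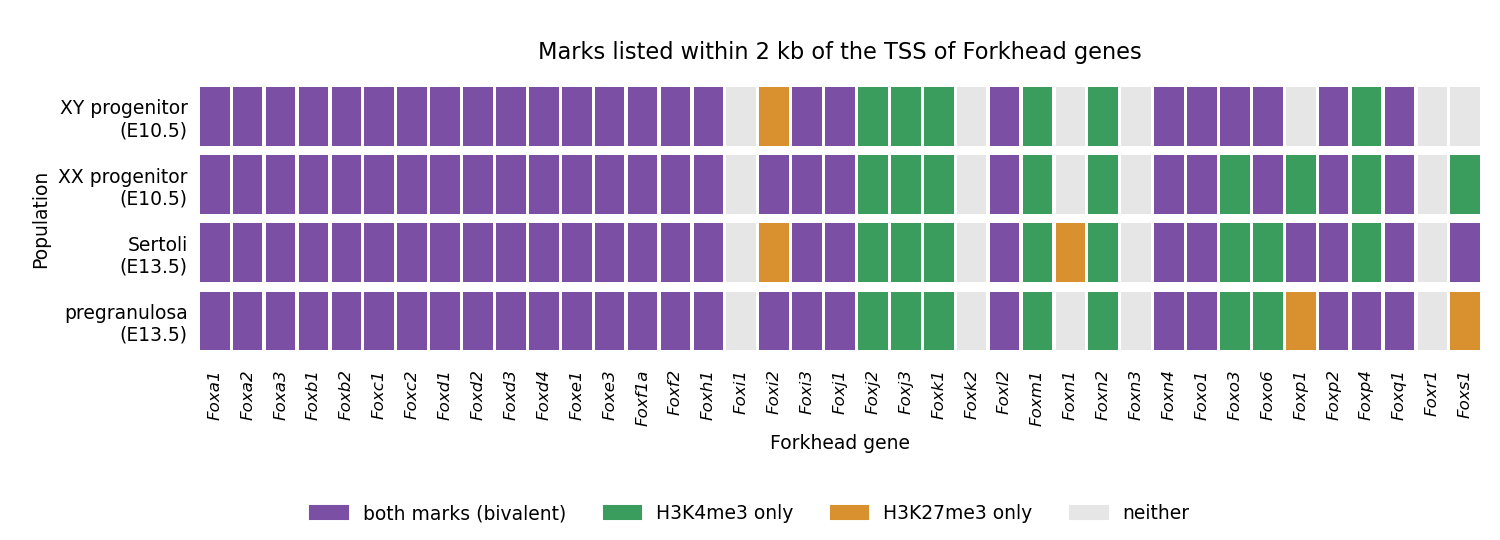
Marks within 2 kb of the TSS for Forkhead genes (columns; 39 of the 40 are drawn) in the 4 populations (rows), with purple for both marks, green for H3K4me3 only, orange for H3K27me3 only and grey for neither. The 23 all-purple columns drawn are bivalent throughout, and 7 columns hold more than 1 colour.

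The members without H3K27me3 fell into 2 kinds. *Foxj2*, *Foxj3*, *Foxk1*, *Foxm1* and *Foxn2* had H3K4me3 only in all 4 populations (5 of 40, against 38.2% of all genes). *Foxm1* drives entry into mitosis, and *Foxk1* is a broadly expressed regulator of metabolism. *Foxi1*, *Foxk2*, *Foxn3* and *Foxr1* had neither mark in any population (26.3% of all genes). Of these, *Foxk2* and *Foxn3* depended on the annotation: when the start of any annotated transcript was accepted, both had H3K4me3 only in all 4 populations. *Foxi1*, a regulator of ion-transporting cells of ear and kidney, and *Foxr1* stayed without a mark there. The H3K4me3 of some members also cannot be assigned to them alone, because 12 of the 40 windows hold the TSS of another annotated gene. *Foxm1* starts 56 bp from 5930416I19Rik on the opposite strand, *Foxl2* 297 bp from the noncoding Foxl2os, *Foxd2* 359 bp from 9130206I24Rik and *Foxa3* 839 bp from *Sympk*.

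*Foxl2* was bivalent before and after sex determination, in both lineages, by the regions listed at its promoter. The width of its H3K4me3 region differed among the populations. H3K27me3 filled the whole 4001 bp window and the whole gene body (chr9:98856026-98858545, 2520 bp, plus strand) in every population. The H3K27me3 regions were called with a size of 5000 bp, longer than the gene, and carry no height, so lower H3K27me3 over the TSS or the body within a listed region cannot be seen in these lists. The H3K27me3 region was 32553 bp wide in XY progenitors, 40185 bp in XX progenitors, 40986 bp in Sertoli cells and 35320 bp in pregranulosa cells. The H3K4me3 region at the TSS was 1943 bp, 6315 bp, 3236 bp and 14012 bp wide in the same order. In pregranulosa cells it ran from 3857 bp upstream to 10154 bp downstream of the TSS, well past the end of the gene and inside the H3K27me3 region of that list. It was a single listed peak, and it ranked 20th by width of 43367 autosomal H3K4me3 regions (the top 0.0461%). The corresponding rank was 4495th of 38056 in Sertoli cells, 610th of 40878 in XX progenitors and 9638th of 36828 in XY progenitors. The 2 XX populations held the wider regions. The medians over the 2997 genes bivalent in all 4 populations were also wider in the XX populations (1997, 2779, 2236 and 2537 bp). For those medians XX progenitors, and not pregranulosa cells, were widest. The XX progenitor list came from 49254553 tags against 10162534 for XY progenitors. There is 1 list per population and the sequencing depth of the pregranulosa lists is not given in the sources used here. The error of the order of the *Foxl2* widths therefore cannot be estimated.

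The study's ChIP-qPCR primers for *Foxl2* are shown because they place a bench assay inside this region. The forward primer is atacgaatcagaacggagcg and the reverse primer is tcggtgggttttcttggc. They bound 134 bp at chr9:98855669-98855802 in NCBIM37, from 357 to 224 bp upstream of the TSS. That stretch lay wholly inside listed regions of both marks in all 4 populations, so presence in the lists does not separate the populations at the amplicon. Of the genes with the same class as *Foxl2* in all 4 populations, the nearest by the covered share of the promoter window, summed over 8 lists, were *Foxj1* (34.3 percentage points apart), *Foxb2* (52.5), *Foxf2* (56.9) and *Foxe1* (61.6). In pregranulosa cells the *Foxj1* region was 5685 bp, its widest, and the 5833 bp of *Foxb2* lay just under its 6109 bp in XX progenitors. Within 10 kb of the *Foxj1* TSS, H3K4me3 covered 5906 bp in 3 regions in XX progenitors and 5685 bp in 1 region in pregranulosa cells. *Foxf2* had 2842 bp in pregranulosa cells against 6382 bp in XX progenitors, and *Foxe1* had 3013 bp against 3885 bp in Sertoli cells, so neither was widest in pregranulosa cells.

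**Figure D2:**
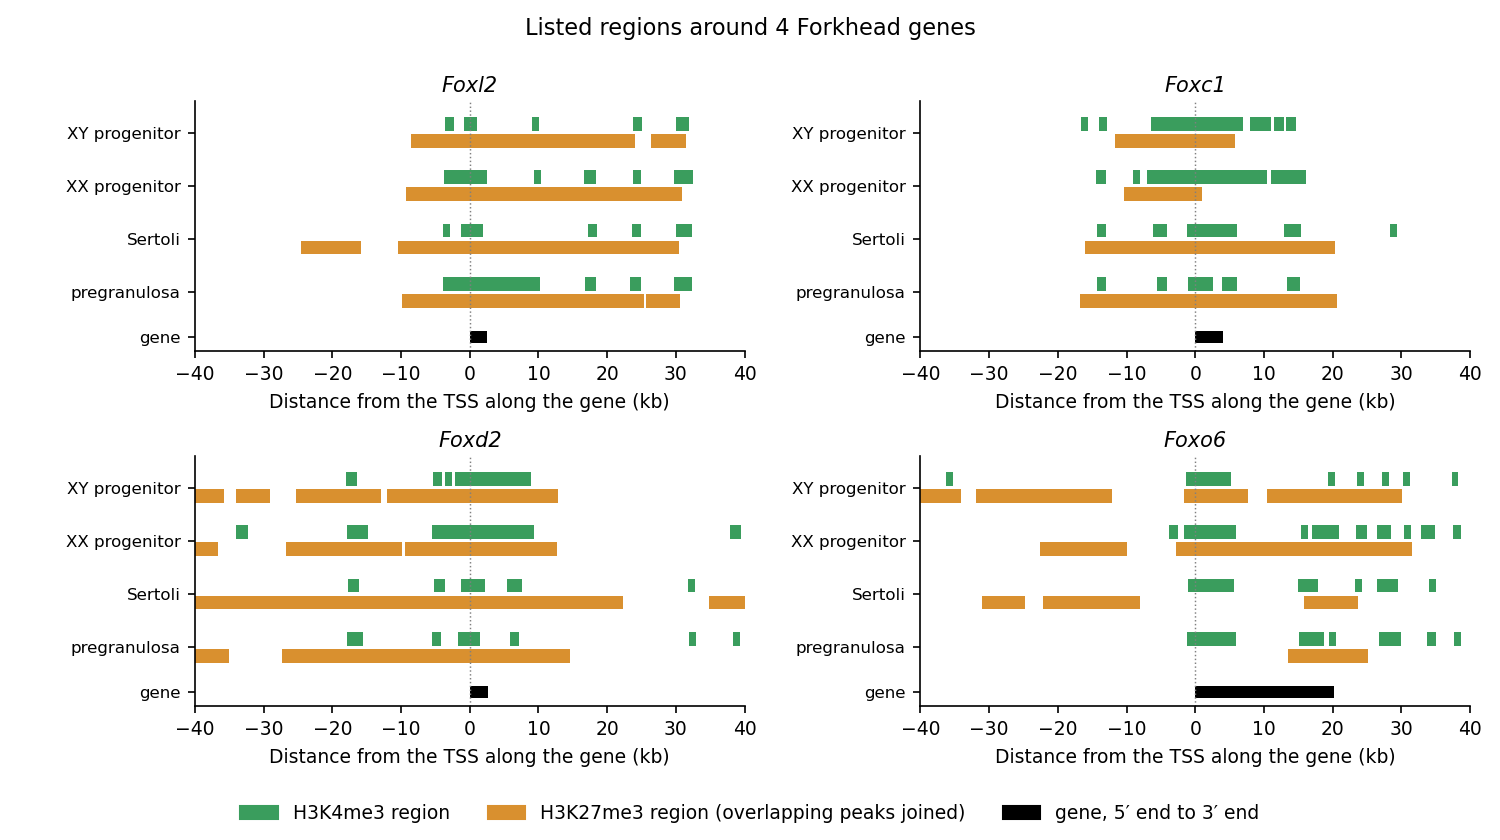
Listed regions of H3K4me3 (green) and H3K27me3 (orange) within 40 kb of the TSS of *Foxl2*, *Foxc1*, *Foxd2* and *Foxo6*, by population, with the gene in black; the x axis is distance from the TSS in kb along the gene. The H3K4me3 region of *Foxl2* is longest in pregranulosa cells, those of *Foxc1* and *Foxd2* are longest in the progenitors, and the H3K27me3 region over the TSS of *Foxo6* is present in the progenitors only.

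*Foxc1*, *Foxc2*, *Foxd1* and *Foxd2* showed the other pattern, with wide H3K4me3 in the progenitors and narrower H3K4me3 in both E13.5 populations. The *Foxc1* region was 13456 bp in XY progenitors and 17437 bp in XX progenitors, among the 15 widest of each list (13th and 15th). It was 7180 bp in Sertoli cells and 3618 bp in pregranulosa cells. The H3K27me3 region at *Foxc1* was longer at E13.5, at 36505 and 37440 bp, than at E10.5, at 17391 and 11330 bp. In XX progenitors that region covered 24.9% of the *Foxc1* gene body, whereas it covered the whole body in the other 3 populations. Around this gene H3K4me3 was therefore shorter and H3K27me3 longer at E13.5, in both lineages.

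At *Foxd2* the H3K4me3 region was 10994 bp in XY progenitors and 14844 bp in XX progenitors (25th and 28th by width), against 3448 bp in Sertoli and 3176 bp in pregranulosa cells. *Foxc2* had 6782, 10100, 3507 and 2426 bp, and *Foxd1* had 4271, 7140, 2782 and 2831 bp, in the order XY progenitor, XX progenitor, Sertoli and pregranulosa. For these 4 genes each progenitor list held a wider region than either E13.5 list. Over the 24 bivalent members, 4 had a Sertoli region at least 1.5 times narrower than in XY progenitors, where 6.51% of the 2997 genes bivalent in all 4 populations did. From XX progenitors to pregranulosa cells 7 of 24 did, against 11.3%, with *Foxd3* and *Foxf2* among them beside the 4 genes above. By bases within 10 kb, *Foxd3* had 9972 bp in XX progenitors and 6693 bp in pregranulosa cells. *Foxf2* had 9229 bp in 3 regions and 7348 bp in 4 regions, so both genes fell below 1.5 times by that measure. *Foxc1*, *Foxc2*, *Foxd1* and *Foxd2* stayed above it in both lineages. Regions at least 1.5 times wider were found for *Foxl2* and *Foxj1* in pregranulosa cells (2 of 24, against 2.80%). By bases within 10 kb, *Foxl2* had 6963 bp in XX progenitors and 13858 bp in pregranulosa cells. *Foxj1* had 5906 bp in 3 regions and 5685 bp in 1 region, so its region was wider without more bases covered. In Sertoli cells 7 of 24 were wider by that factor, with *Foxa2*, *Foxa3*, *Foxb2*, *Foxe1*, *Foxi3*, *Foxj1* and *Foxl2* among them, against 18.0%. By bases within 10 kb, *Foxl2* had 4185 bp in XY progenitors and 4237 bp in Sertoli cells. In the same order *Foxj1* had 3330 and 3781 bp and *Foxb2* 3799 and 5329 bp. These 3 genes fell below 1.5 times by that measure, and *Foxa2*, *Foxa3*, *Foxe1* and *Foxi3* stayed above it. The XY progenitor H3K4me3 list came from 10162534 tags, the XX progenitor list from 49254553 and the Sertoli list from 31104760. The median H3K4me3 width over the 2997 genes was 1997, 2779, 2236 and 2537 bp in XY progenitors, XX progenitors, Sertoli and pregranulosa cells. The part of depth in the widths was not tested. H3K27me3 regions at least 1.5 times wider at E13.5 were at 9 of the 24 genes in the XY lineage (32.9% of the 2997) and at 3 in the XX lineage (*Foxc1*, *Foxd2* and *Foxe3*, against 15.0%). In each E13.5 list *Foxd2* and *Foxe3* share 1 region, which counts for both genes. In XX progenitors they had 2 regions less than 1 kb apart. Cover within 50 kb of either TSS was 44.0% in XX progenitors and 46.9% in pregranulosa cells. Regions narrower by that factor were at 0 of 24 (4.40%) and at 2 (*Foxf1a* and *Foxh1*, against 5.24%).

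**Figure D3:**
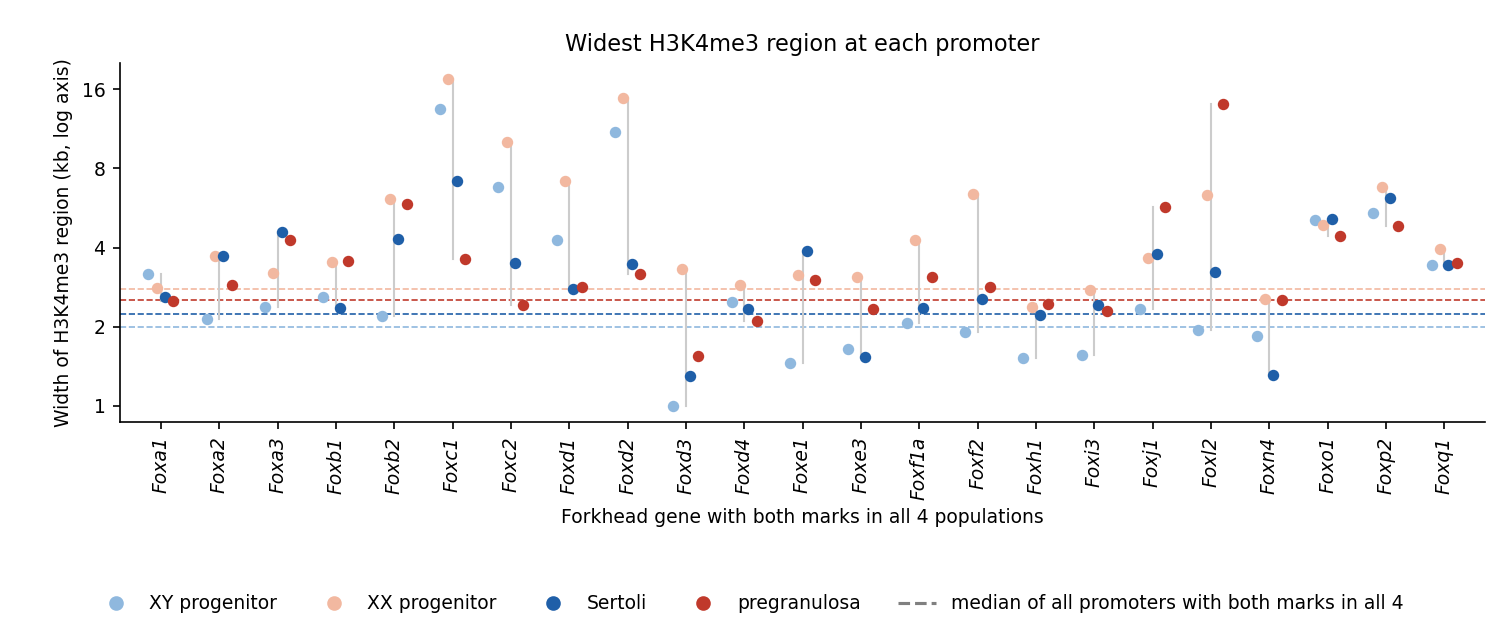
Width of the widest H3K4me3 region overlapping the promoter window (kb, log axis) for 23 of the 24 Forkhead genes with both marks in all 4 populations; each point is 1 list and dashed lines are the medians of all 2997 promoters of that class. *Foxc1*, *Foxc2*, *Foxd1* and *Foxd2* have their 2 widest regions in the progenitors, and *Foxl2* has its widest, 14012 bp, in pregranulosa cells.

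The Foxo genes, effectors of insulin and PI3K signalling, differed among themselves. *Foxo6* was bivalent in both progenitors and had H3K4me3 only in both E13.5 populations. Its H3K27me3 covered 3640 bp of the window in XY progenitors, 4001 bp in XX progenitors and 0 bp in Sertoli and pregranulosa cells, while its H3K4me3 covered 3405, 3574, 3091 and 3208 bp. Some H3K27me3 was listed further into the gene at E13.5, over 21.9% of the body in Sertoli cells and 33.3% in pregranulosa cells, where it had been 85.9% and 100% in XY and XX progenitors. Of the 40 genes, only *Foxo6* had H3K27me3 at the promoter in both progenitors and in neither E13.5 list, as did 2.24% of all genes.

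*Foxo1* remained bivalent by the window in all 4 populations, but its H3K27me3 lay further upstream in Sertoli cells. The region ended 5488 bp and 3599 bp downstream of the TSS in XY and XX progenitors and 1523 bp downstream in pregranulosa cells. In Sertoli cells it ended 106 bp upstream of the TSS, inside the printed sequence, and covered 1895 bp of the window and 0% of the gene body. With presence asked at the TSS itself, *Foxo1* had H3K4me3 only in Sertoli cells. *Foxo3*, which restrains follicle activation in the ovary, had H3K4me3 across the whole window in every population. Its H3K27me3 came from a single 5001 bp region in XY progenitors and from none in the other 3 populations.

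*Foxp1*, *Foxp4* and *Foxs1* were the members with H3K27me3 at E13.5 and none at the promoter at E10.5 (*Foxn1* in Sertoli cells also met this). At *Foxp4* H3K4me3 covered 4001, 4001, 3714 and 3996 bp of the window in XY progenitors, XX progenitors, Sertoli and pregranulosa cells. H3K27me3 covered 2853 bp in pregranulosa cells and 0 bp in the other 3. In Sertoli cells the nearest H3K27me3 region, 26755 bp wide, stopped 4870 bp upstream of the *Foxp4* TSS. *Foxs1*, a gene of perivascular cells, had neither mark in XY progenitors, 741 bp of H3K4me3 in XX progenitors, both marks in Sertoli cells (2243 bp of H3K4me3 and 2059 bp of H3K27me3) and 4001 bp of H3K27me3 alone in pregranulosa cells. In Sertoli cells its H3K4me3 ran from 242 bp upstream to 4861 bp downstream and its H3K27me3 ended 58 bp downstream, so that the 2 regions met near the TSS. In pregranulosa cells H3K27me3 ran past the TSS to 2359 bp downstream, and the whole of this short gene was covered.

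*Foxp1* has 10 annotated transcript starts, and the window here is at the most upstream of them. There H3K27me3 covered 4001 bp in both E13.5 populations and 0 bp in both progenitors, and H3K4me3 covered 0, 1172, 1001 and 0 bp in XY progenitors, XX progenitors, Sertoli and pregranulosa cells. The Sertoli call is a single 1001 bp region and was lost with the widest 75% of regions. With any transcript start accepted it had H3K4me3 in all 4 populations and H3K27me3 in the E13.5 populations. *Foxn1*, the thymic epithelial factor, had 2101 bp of H3K27me3 in Sertoli cells and no mark elsewhere. *Foxi2* had H3K27me3 over the whole window in all 4 populations, with 1766 and 1588 bp of H3K4me3 in XX progenitors and pregranulosa cells and none in the XY populations.

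In all, 7 of the 40 classes differed among populations, and 20.7% of all genes did. Between XY progenitors and Sertoli cells 5 differed (15.3% of all genes), between the 2 progenitors 4 (7.53%), and between Sertoli and pregranulosa cells 5 (11.2%). Between XX progenitors and pregranulosa cells 4 of 40 differed, and 2243 of the 21418 genes did. In the XY lineage H3K27me3 was at the promoter only in Sertoli cells for 3 (5.87% of all genes) and only in XY progenitors for 2 (5.29%), and H3K4me3 only in Sertoli cells for 2 (2.80%) and only in XY progenitors for 0 (2.10%). In the XX lineage H3K27me3 was there only in pregranulosa cells for 3 (3.42%) and only in XX progenitors for 1 (4.22%), and H3K4me3 for 0 (1.78%) and 2 (1.44%). These counts are small, and the shares lie near the background. With presence asked at the TSS itself, added after seeing the data, 11 of 40 differed between XY progenitors and Sertoli cells (27.5%, against 14.2% of all genes by the same rule). By that rule 6 differed between XX progenitors and pregranulosa cells (15.0%, against 9.49%) and 6 between the 2 progenitors (15.0%, against 7.77%). Between Sertoli and pregranulosa cells 7 did (17.5%, against 9.91%).

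H3K27me3 regions at Forkhead promoters were longer than at other marked promoters. Their median width was 19814 bp in XY progenitors, 22049 bp in XX progenitors, 31727 bp in Sertoli cells and 28290 bp in pregranulosa cells. The medians over all promoters with H3K27me3 were 8045.5, 8903.5, 11602.5 and 10386 bp. Regions of at least 30 kb lay at 7 of 27, 7 of 26, 17 of 28 and 12 of 28 marked Forkhead promoters, against 6.60%, 6.70%, 13.3% and 10.2% of all marked promoters. The whole gene body lay inside H3K27me3 for 20, 21, 21 and 21 of the 40 (4.71%, 4.86%, 6.19% and 5.14% of all genes). The genes are short, with a median length of 3231 bp for the 25 with H3K27me3 throughout against 21805 bp for all genes of that kind, so full cover takes fewer bases here.

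Within 50 kb of the TSS, H3K27me3 covered on average 24.8%, 24.0%, 33.1% and 29.2% of the 40 neighbourhoods in XY progenitors, XX progenitors, Sertoli and pregranulosa cells, where the means over all genes were 7.72%, 7.38%, 11.5% and 8.70%. Cover was at least 10 percentage points higher in Sertoli cells than in XY progenitors for 15 of 40 (16.8% of all genes) and in pregranulosa cells than in XX progenitors for 8 of 40 (7.55%). The differences were 36.8 points in the XY lineage and 13.4 in the XX lineage at *Foxc2*, 29.8 and 29.7 at *Foxd4*, 29.1 and 18.0 at *Foxd1*, 21.8 and 41.6 at *Foxp4* and 12.7 and 31.4 at *Foxp1*. *Foxn4*, of retinal and spinal progenitors, gave 35.8 and 3.53, and *Foxd2* gave 24.4 and 2.85. *Foxl2* gave 12.2 points in the XY lineage and 0.136 in the XX lineage. Only *Foxo6* had at least 10 points less at E13.5, by -26.2 in the XY lineage and -40.3 in the XX lineage, as 2.65% and 3.24% of all genes did. For all genes together the means were also higher at E13.5, and the Sertoli H3K27me3 list came from 44446456 tags against 6470151 for XY progenitors. The part of depth was not tested.

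**Figure D4:**
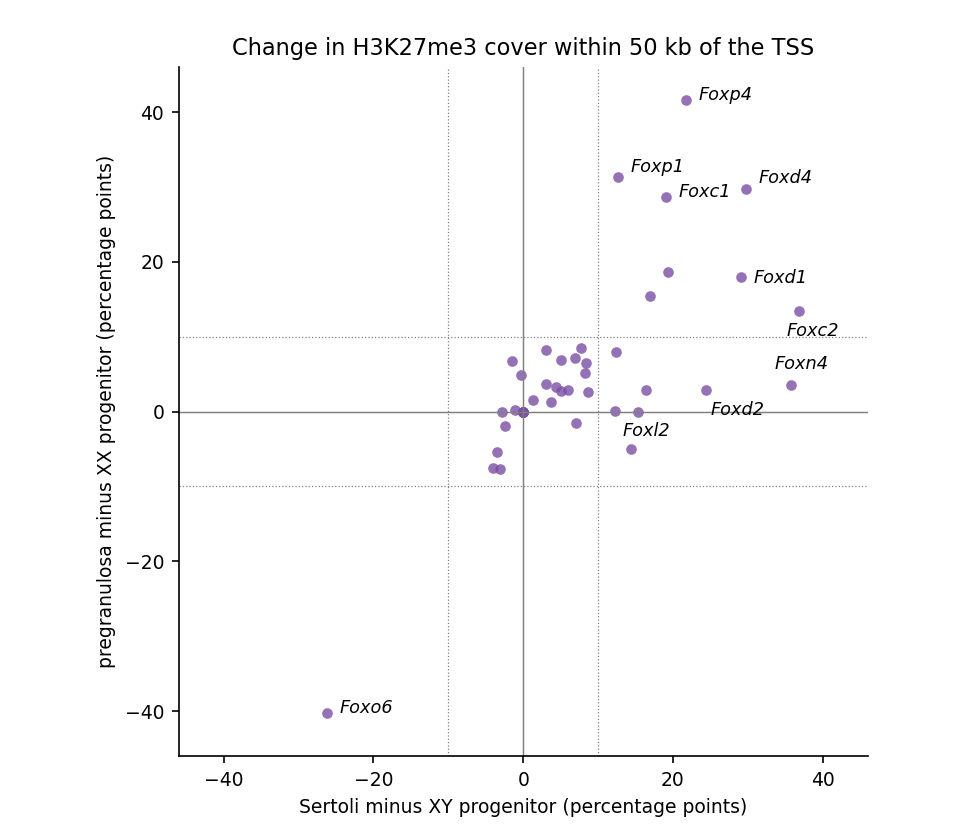
Difference in the share of the TSS plus and minus 50 kb covered by H3K27me3, in percentage points, between Sertoli cells and XY progenitors (x axis) and between pregranulosa cells and XX progenitors (y axis), with 1 point per Forkhead gene and dotted lines at 10 points. Unlabelled points of the same kind also show the Forkhead median (5.97, 2.85), the Forkhead mean (8.30, 5.20) and the mean of all protein-coding genes (3.77, 1.32). The 15 points right of the upper dotted line on the x axis are the genes with at least 10 points more in Sertoli cells, *Foxp4* is the highest at 41.6 points in the XX lineage, and *Foxo6* lies alone at the lower left.

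Of the 40 genes, 6 lie in 3 clusters with less than 100 kb between members, so their regions are not independent. *Foxq1* and *Foxf2* (chromosome 13, 64845 bp apart) had separate H3K27me3 regions in all 4 populations. *Foxd2* and *Foxe3* (chromosome 4, 16177 bp apart) had separate regions at E10.5 and shared a region at E13.5, of 65734 bp in Sertoli cells and 41901 bp in pregranulosa cells. The gap at E10.5 ran from 12050 to 12916 bp upstream of the *Foxd2* TSS in XY progenitors and from 9444 to 9912 bp in XX progenitors. Both gaps are under the 1 kb used for merging, so the count of separate regions at E10.5 rests on them. *Foxf1a* and *Foxc2* (chromosome 8, 29219 bp apart) were in separate regions throughout. The region over *Foxf1a* was 90362 bp wide in XY progenitors, 171232 bp in XX progenitors, 346218 bp in Sertoli cells and 52771 bp in pregranulosa cells, and in Sertoli cells it was the widest of 13105 autosomal regions. That stretch, chr8:123275763-123621980, begins 332523 bp upstream of the *Foxf1a* TSS and reaches *Irf8* and *Mthfsd* at its ends. Within it H3K27me3 covered 90.5%, 90.7%, 100% and 82.9% of the bases, in 9, 4, 1 and 10 regions. The first 3 lists hold 178, 203 and 222 overlapping windows there and the pregranulosa list 10 separate regions, so the widths come from unlike lists. The 100% in Sertoli cells follows from the choice of their own region as the stretch, and cover outside it was not counted. Within the stretch the other populations differed far less in the bases covered than in the width of the region over the gene.

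The classes were also set beside sequence and gene structure, which the choice of members did not use. The CpG observed over expected ratio, within 500 bp of the TSS, had a median of 0.775 over the 40 genes and 0.559 over all genes. It was 0.765 for the 25 members with H3K27me3 throughout, 0.932 for the 5 with H3K4me3 only throughout and 0.272 for the 4 with neither. The medians over all genes of these 3 classes were 0.628, 0.758 and 0.162. Of the 4 with neither, *Foxk2* (0.252) and *Foxn3* (0.233) had H3K4me3 where any transcript start was accepted, and the 2 that stayed unmarked were *Foxi1* (0.292) and *Foxr1* (0.651). *Foxh1* (0.294) and *Foxd4* (0.431) were the lowest among the 25. Among the 24 bivalent genes *Foxh1* also had the least H3K4me3 in its window, with 479 bp in XY progenitors and 1272, 1253 and 1475 bp in XX progenitors, Sertoli and pregranulosa cells, none of it over the gene body and the window shared with *Ppp1r16a*. A single exon was annotated for 10 of the 25 and for 11 of all 40 (27.5%), where 12.8% of all genes have a single exon. The 5 genes with H3K4me3 only had a median length of 49823 bp, against 3231 bp for the 25, whereas over all genes the same classes had medians of 21739 and 21805 bp. The forkhead recognition letters TGTTTAC, or GTAAACA on the other strand, were found in the 250 bases before the TSS of 1 member, *Foxa1* (2.50%), and of 2.70% of all genes.

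**Figure D5:**
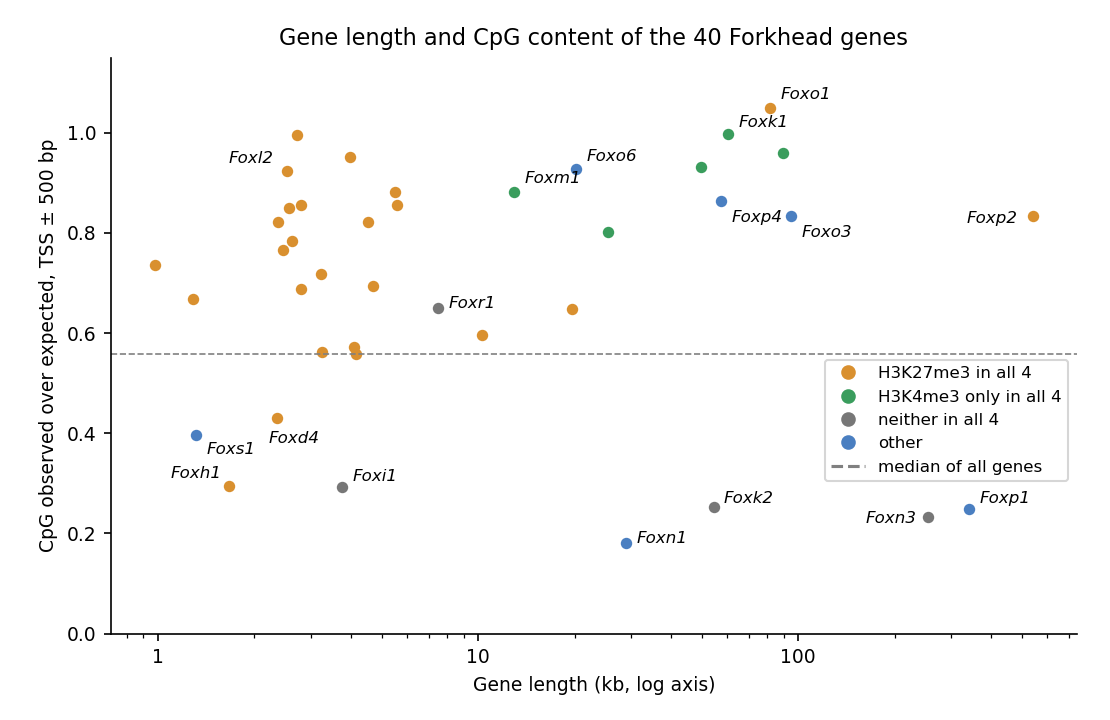
CpG observed over expected ratio within 500 bp of the TSS against gene length (kb, log axis) for the 40 Forkhead genes, coloured by their marks over the 4 populations; the dashed line is the median of all genes, 0.559. Genes with H3K27me3 in all 4 populations (orange) are mostly short and CpG-rich, and those with H3K4me3 only (green) are CpG-rich and longer.

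Genes that work with Forkhead factors were taken from 3 lists. Of 12 partners and targets of FOXL2, 7, 7, 6 and 4 were bivalent and 3, 3, 4 and 6 had H3K4me3 only in XY progenitors, XX progenitors, Sertoli and pregranulosa cells. Over all genes 20.9%, 21.4%, 19.2% and 19.6% were bivalent and 43.9%, 45.3%, 46.3% and 47.5% had H3K4me3 only. *Wnt4* and *Rspo1*, which promote ovarian fate, and *Bmp2* were bivalent in the first 3 populations and had H3K4me3 only in pregranulosa cells. *Sox9*, the testis factor that FOXL2 opposes, had H3K4me3 only in Sertoli cells and was bivalent in the other 3. *Fst*, *Esr2* and *Inhba* were bivalent throughout, and the aromatase gene *Cyp19a1* had neither mark in any list. In the pregranulosa list 4 of the 12 had H3K27me3 and the other 8 did not.

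Of 18 genes of the FOXO pathway, 12, 11, 11 and 11 had H3K4me3 only and 5, 6, 7 and 6 were bivalent, in the same order of populations. Over all genes 43.9%, 45.3%, 46.3% and 47.5% had H3K4me3 only and 20.9%, 21.4%, 19.2% and 19.6% were bivalent. The kinase genes *Pik3ca* and *Akt2* and the receptor genes *Insr* and *Igf1r* had H3K4me3 only in all 4 populations, whereas *Sgk1*, *Sirt1*, *Bcl6* and the pro-apoptotic target *Bcl2l11* were bivalent in all 4. *Akt1* had H3K4me3 only at E10.5 and both marks at E13.5. Of 7 cell cycle targets of FOXM1, 6, 6, 6 and 7 had H3K4me3 only, as *Foxm1* itself did, against 43.9%, 45.3%, 46.3% and 47.5% of all genes. *Ccnb1*, *Ccnb2*, *Plk1*, *Cenpf* and *Birc5* did so in all 4 populations, while *Aurkb* was bivalent in XY progenitors and *Cdc25b* in XX progenitors and Sertoli cells.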

How the data were processed

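FACS-sorted cells (chromatin digested with micrococcal nuclease, *Drosophila* S2 carrier chromatin added) were profiled in 24 libraries. The authors aligned reads to mm9 and called regions with HOMER findPeaks against H3 (histone style, size 5000 for H3K27me3 and 1000 for H3K4me3, 4.0-fold over input and over flanks, Poisson p 0.0001, per the file headers). The 8 deposited lists give region starts and ends. The deposited score column is constant and was not used, and 2 lists (pregranulosa) have no header. Versions of the authors' tools are not given in the sources used here.

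Overlapping listed peaks, which are sliding windows in 3 of the H3K27me3 lists, were joined. Joined regions were intersected with GENCODE M1 protein-coding genes on 19 autosomes (Python 3.11.15, pysam 0.24.0, samtools 1.23.1). No listed end lay beyond a chromosome of the NCBIM37 reference. Interval code was tested on simulated data against bedtools 2.31.1. Exact Clopper-Pearson 95% intervals used SciPy 1.17.1.

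Members, the 3 lists of related genes and the markers were chosen with earlier results of these data known. Any member could be named, as could listed genes. The 4 nearest to *Foxl2* were ranked by summed absolute difference in promoter cover. Calls were repeated with 500 bp of overlap, TSS plus and minus 1 kb, any transcript start, the widest 75% of regions, equal numbers of regions per mark and merging within 1 kb. Heights, replicates and expression were not analysed here, and results for some genes are not reported here.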

Additional observations from a re-analysis of the deposited data

Results flagged for a closer look

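The width of the H3K27me3 region over *Foxf1a* differed in opposite directions in the 2 lineages, by more than 1.5 times in each. The Sertoli region was 3.83 times as wide as the XY progenitor region, and the pregranulosa region was 0.308 times as wide as the XX progenitor region. The difference between lineages was not tested, since each population has 1 list. The lists are also unlike: the XY progenitor, XX progenitor and Sertoli lists hold 178, 203 and 222 overlapping windows in the stretch covered by the Sertoli region, which were joined here, and the pregranulosa list holds 10 separate regions there. The bases covered within the Sertoli stretch moved less, at 90.5% in XY progenitors, 100% in Sertoli cells, 90.7% in XX progenitors and 82.9% in pregranulosa cells. The 100% is set by the choice of the Sertoli region as the stretch, and cover outside it was not counted.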

How the results depend on the processing

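No paired analysis was possible because there is 1 list per mark and population, with no list per replicate, and for the same reason no replicate could be left out. With 500 bp of overlap, TSS plus and minus 1 kb, any transcript start, the widest 75% of regions, equal numbers of regions and merging within 1 kb, the counts of Forkhead promoters with each mark and with both stayed within 1.5 times the reported count. Asking for a region at the TSS itself, added after seeing the data, raised the class differences between XY progenitors and Sertoli cells from 5 to 11 (14.2% of all genes by the same rule). It lowered the promoters with both marks in all 4 populations from 24 to 17 of 40. The share of all genes with both marks by that rule is not given here. It moved 9 genes, of which *Foxa2*, *Foxa3* and *Foxe1* lost H3K4me3 in XY progenitors and *Foxh1* in all 4 populations. *Foxh1* also lost H3K4me3 in XY progenitors with 500 bp of overlap or TSS plus and minus 1 kb, and *Foxa3* lost H3K27me3 in Sertoli cells with the widest 75% of regions or equal numbers of regions. With the widest 75% *Foxd3* also lost H3K4me3 in XY progenitors and *Foxp1* in Sertoli cells. *Foxs1* lost H3K4me3 in XX progenitors with TSS plus and minus 1 kb and at the TSS itself, and *Foxp1* lost it there at the TSS itself. XY progenitors have the shallowest lists with a recorded depth, and the depth of the pregranulosa lists is not given in the sources used here.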
